A study of Mus musculus with 22 samples.

Results

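Glu4 is a type of glutamatergic neuron in a single-nucleus RNA-seq survey of the hypothalamus of male ob/ob mice, which make no functional leptin, are obese and were 11 weeks old. The Glu4 nuclei were taken by the cell type name that the authors deposited for each nucleus, and 497 of the 24965 nuclei carried it. That is 497 of 24305 nuclei with an annotated type and of 19416 annotated as neurons. Each mouse had received 1 intracerebroventricular injection of 3 µg FGF1 (fibroblast growth factor 1) or of the PBS vehicle, and vehicle mice were pair-fed to the FGF1 mice. Nuclei were collected on Day 1 from 3 FGF1 and 3 vehicle mice and on Day 5 from 2 FGF1 and 2 vehicle mice, 1 library a mouse. Every group lacked leptin, and no lean or freely fed vehicle group was used here. Day 1 mice are named by replicate number and Day 5 mice by their label number (FGF1 37 and 45, vehicle 28 and 38).

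Neurons that release glutamate load it into synaptic vesicles with a vesicular transporter, and in the diencephalon this is mostly VGLUT2, the product of Slc17a6. The hypothalamus lies below the thalamus, and a coronal block of the forebrain can hold cells of both. Tcf7l2 is a TCF/LEF transcription factor of the Wnt pathway that is known from the developing thalamus and habenula, where it takes part in setting neuron identity. FGF1 binds all FGF receptors.

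Every mouse gave Glu4 nuclei, but in very unequal numbers. On Day 1 the FGF1 mice gave 152, 16 and 19 nuclei and the vehicle mice 10, 1 and 16. On Day 5 FGF1 37 and 45 gave 59 and 193, and vehicle 28 and 38 gave 13 and 18. FGF1 1 on Day 1 and FGF1 45 on Day 5 therefore held most of the Glu4 nuclei. Day 1 vehicle 2, with 1 nucleus, entered no main comparison of expression, only an alternative that took mice with 1 nucleus. The summed Glu4 UMIs (unique molecular identifiers, counted transcripts) of the other 9 mice ran from 44400 to 549343, so that 1 UMI was worth 1.82 to 22.5 CPM, the count scaled to a summed library of 1000000 UMIs. Across libraries 24645 of 24965 barcodes were distinct, 10 Glu4 nuclei shared a barcode with a nucleus of another library, and no pair of Glu4 nuclei did.

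The defining marker was present in every mouse. Slc17a6 (chr7:51622006-51671119, plus strand, GRCm38) was at 184, 158 and 167 CPM in the Day 1 FGF1 mice, 354 and 191 CPM in Day 1 vehicle mice, 216 and 124 CPM in Day 5 FGF1 mice and 158 and 243 CPM in Day 5 vehicle mice. In each of these 9 mice it was above the level in that mouse's other neurons, with a mean of 199 ± 67.6 CPM (SD, n = 9 mice) against 88.0 ± 12.3 CPM. Among 29 types with at least 10 nuclei in at least 2 mice, Glu4 had the highest mean Slc17a6, but the next types lay within its spread: n31.Fam19a2 at 175 ± 40.3 CPM, Glu5 at 168 ± 47.1 CPM and n29.Nr5a1/Adcyap1 at 147 ± 36.0 CPM. Of the genes for GABA synthesis and loading, Gad1 was at 16.0, Gad2 at 71.0 and Slc32a1 at 13.9 CPM, against 66.0, 168 and 23.6 CPM in other neurons. Of the 497 nuclei, 35 (7.04%) held 2 or more UMIs of these 3 genes.

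The gene by which the study labels this type is Tcf7l2 (chr19:55741820-55933654, plus strand). Its Glu4 level was 418, 563 and 492 CPM in Day 1 FGF1 mice, 312 and 299 CPM in Day 1 vehicle mice, 476 and 431 CPM in Day 5 FGF1 mice and 228 and 352 CPM in Day 5 vehicle mice. Its mean was 397 ± 107 CPM against 30.0 ± 7.82 CPM in other neurons, a ratio of 13.2. Glu4 ranked first of the 29 types for it, and the types next in order were not neurons: tanycytes (296 ± 139 CPM), whose mean lay within the spread, VLMC (247 CPM), ependymal cells (165 CPM) and astrocytes (154 CPM). The axon guidance gene Ntng1 (netrin G1, chr3:109780040-110144011, minus strand) was at 1940 ± 487 CPM, 6.78 times other neurons, with n31.Fam19a2 next at 1250 ± 405 CPM. A UMI of both genes was seen in 341 Glu4 nuclei (68.6%) and in 678 other neuron nuclei (3.58%), and 494 Glu4 nuclei (99.4%) had a UMI of at least 1 of them. These contrasts between Glu4 and the rest describe the type, since the same expression values placed the nuclei in it, and carry no test.

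**Figure D1:**
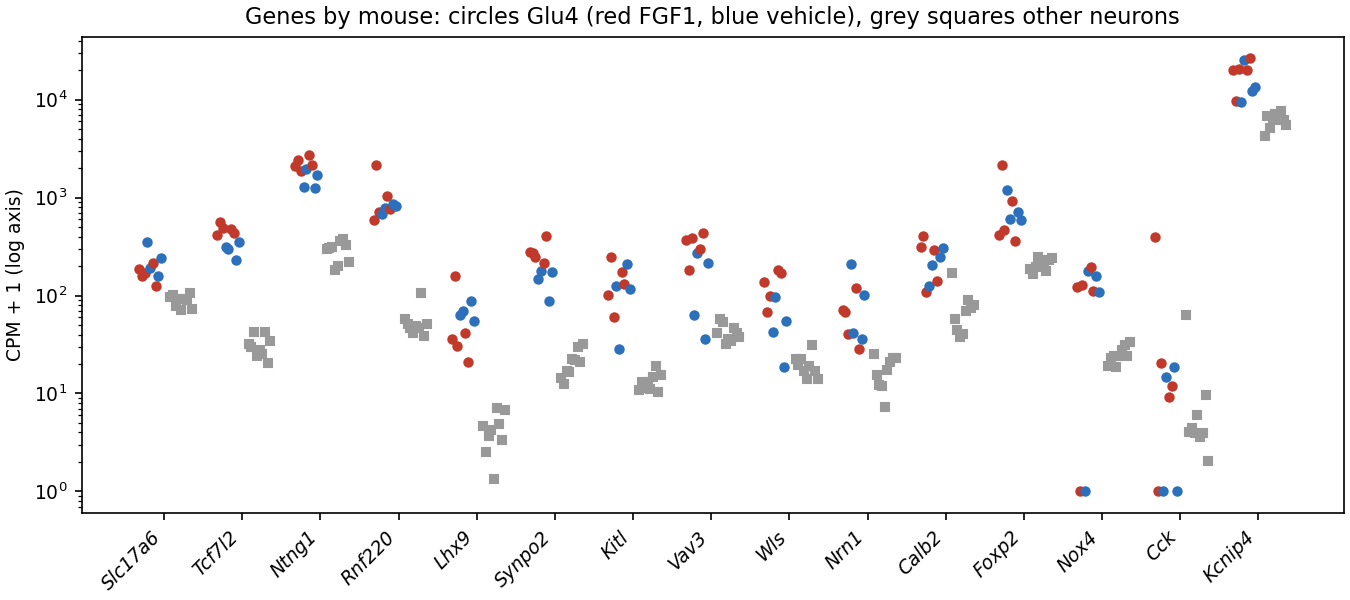
Expression in CPM + 1 (log axis) of 15 genes in the summed Glu4 nuclei (circles, red FGF1, blue vehicle) and in the summed other neurons (grey squares), 1 point for each of 9 mice. Glu4 points of Tcf7l2, Ntng1, Rnf220 and Synpo2 sit above the other neurons in every mouse, while Cck and Nox4 reach 0 CPM in some mice.

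The 20 genes with the largest ratio to other neurons, among those of at least 50 CPM, spanned ratios of 4.17 to 18.9. They began with the LIM homeobox regulator Lhx9 (61.7 against 3.27 CPM), the ubiquitin ligase gene Rnf220 (937 against 53.2 CPM), Tcf7l2 and the actin-binding Synpo2 (221 against 19.9 CPM). Kit ligand, Kitl (132 CPM, 10.8 times), the long noncoding RNA Gm29478 (205 CPM, 9.1 times), the protein kinase C gene Prkch (79.3 CPM, 7.84 times) and Ntng1 followed. Signalling genes further down were the nucleotide exchange factor gene Vav3 (250 CPM, 6.04 times), Wls, which carries Wnt ligands to the cell surface (95.8 CPM, 5.14 times), the Nogo receptor relative Rtn4rl1 (82.4 CPM, 5.42 times) and the synaptic plasticity gene Nrn1 (78.4 CPM, 4.78 times). The list closed with Cck, Gm20754, Mctp2, Chst9, the superoxide-forming oxidase Nox4 (111 CPM, 4.59 times), C1ql3, 4930509J09Rik and Ptpn3. Gm20754 and 4930509J09Rik overlap on opposite strands. Their counts are separate only where reads were assigned by strand, which the sources used here do not state. Among the genes highest by plain level were Malat1 (61800 CPM), Kcnip4, Meg3, Lsamp, Ptprd, Snhg11, Nrg3, Lrp1b and Cntnap2. Of these Kcnip4, a subunit of A-type potassium channels, was furthest above other neurons (17500 against 6130 CPM), and Ptprd was at 7370 against 4070 CPM.

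Genes known from the thalamus stood together above other neurons in Glu4. Of 17 genes of this list with 10 or more Glu4 UMIs, 12 were above 2 times the level of other neurons and none was below 0.5 times it, with a median ratio of 3.96. Over all 11557 genes with 10 or more UMIs, 2.94% were above 2 times, 3.43% were below 0.5 times and the median was 0.949. The list was chosen with earlier results of these data known, and it holds Tcf7l2, by which the study labels the type. Its count thus describes the type and is no test. Beside Tcf7l2, Lhx9, Ntng1 and Synpo2, the 12 held the homeobox gene Lhx2 (14.5 against 1.84 CPM), the zinc finger genes Zic1 (38.7 against 9.82 CPM) and Zic4 (43.4 against 10.3 CPM), Lef1 (40.1 against 13.5 CPM), Foxp2 (822 against 208 CPM), the calcium-binding Calb2 (238 against 72.9 CPM), Ramp3 and Prkcd. Prkcd, Ramp3 and Lef1 reached 10 UMIs through FGF1 mice, with 23, 18 and 30 UMIs in FGF1 1, 23, 41 and 77 in FGF1 45 and at most 3 in any vehicle mouse, so the count of 12 leans on them. For Foxp2 other types lay within the Glu4 spread (822 ± 559 CPM), with n06.Oxt at 715 and Glu6 at 625 CPM, and for Calb2 (238 ± 101 CPM) Glu12 at 158 and Glu6 at 156 CPM. Gbx2, a homeobox gene of the developing thalamus, had 7 UMIs and Slc17a7, the VGLUT1 gene of cortical and many thalamic relay neurons, had 3 UMIs in all Glu4 nuclei. Of the habenular markers, 2 of 9 in the table had 10 or more UMIs and neither was above 2 times.

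Regulators and peptides of hypothalamic neurons were low in the same nuclei. Of 30 regulators of the hypothalamus and its neighbours in the table, 6 had no Glu4 UMI and 3 had 10 or more. These 3 were below 0.5 times the level of other neurons, at 33.8 against 69.6 CPM for Meis2, 14.2 against 47.9 CPM for Isl1 and 15.3 against 67.7 CPM for Sim1. Of 19 neuropeptide genes with 10 or more UMIs, 14 were below 0.5 times, with a median ratio of 0.376. The other neurons include types named for such peptides, so a low ratio may hold for any type that lacks them. These ratios were not set beside those of Glu5 or n29. Agrp and Npy, the peptides of a hunger neuron of the arcuate nucleus, were at 60.7 and 36.4 CPM against 345 and 372 CPM. Cck was the only peptide gene above 2 times, and 1 mouse carried it. Its Glu4 level was 391 CPM in FGF1 1 and 0 to 19.7 CPM in the other 8 mice, and in other neurons it was likewise 61.8 CPM in FGF1 1 and 1.04 to 8.67 CPM elsewhere.

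Channel and receptor genes mostly lay near other neurons. Kcna4 (40.9 against 12.0 CPM) and Kcnip4 were the 2 of 29 potassium channel genes above 2 times, and no gene among the calcium, sodium and HCN channels was. Among GABA receptor genes Gabra4 (194 against 56.3 CPM) and Gabrd (8.44 against 1.45 CPM) were above 2 times, a pair of subunits known from extrasynaptic receptors. The Gabrd level lay below the 9.01 to 22.5 CPM that 1 UMI was worth in the shallower mice, so its ratio is uncertain. Of the ionotropic glutamate receptor genes Gria3 was low (206 against 421 CPM), as was the adhesion gene Nrxn3 (2020 against 4630 CPM). Of the circadian list 1 gene was above 2 times, the nuclear receptor Rorb at 539 against 258 CPM.

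Of the FGF receptor genes Fgfr2 had the highest count in Glu4, at 335 ± 68.4 CPM against 378 ± 67.0 CPM in other neurons, and Glu4 was 24th of the 29 types for it. The longest Fgfr2 model of the annotation used here spans chr7:130162451-133123350 and holds many other genes on both strands, with introns counted, so how much of this count is Fgfr2 itself was not tested. By the same count microglia were at 369 CPM. Fgfr1 was at 20.6 ± 11.7 CPM against 45.9 ± 10.0 CPM, 28th of 29, and Fgfr3 at 3.06 against 5.43 CPM. The coreceptor gene Klb had 9 UMIs in all. Fgf13, whose product acts within the cell on sodium channels, was at 836 against 326 CPM, and its relative Fgf14 was at 3660 against 3600 CPM. Of 23 receptor genes for feeding and metabolic hormones 16 had 10 or more UMIs, with a median ratio to other neurons of 1.02, 2 below 0.5 times and 1 above 2 times. The leptin receptor gene Lepr was at 12.4 against 33.0 CPM, the melanocortin receptor gene Mc4r had 1 UMI and the ghrelin receptor gene Ghsr had none.

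Shares of nuclei with a UMI were read against types that should lack the gene, because free RNA gives UMIs to any droplet. Tcf7l2 was seen in 70.0% of Glu4 nuclei (95% exact binomial interval 65.8 to 74.0%), in 4.17% of Glu5 and in 7.72% of n29.Nr5a1/Adcyap1 nuclei. Rnf220 was seen in 84.7%, 10.9% and 10.2%. With each nucleus thinned to 1000 UMIs the Glu4 shares were 36.2% for Tcf7l2 and 51.5% for Rnf220. Slc17a6 was seen in 36.8% of Glu4 nuclei against 9.69% of astrocytes, at median depths of 2860 and 2693.5 UMIs, and in 14.7% against 3.12% when thinned. In Glu5 it was seen in 41.3% (19.1% thinned) and in n29 in 35.2% (13.4% thinned), so by share of pooled nuclei Glu5 was above Glu4. By mouse the Glu4 share ran from 28.0% in FGF1 45 to 80.0% in Day 1 vehicle 1. FGF1 1 (33.6%) and FGF1 45 held most nuclei and had the lowest shares, so the pooled order leans on them. Gad2 was seen in 12.7% of Glu4 nuclei, 14.7% of Glu5, 11.3% of n29 and 19.6% of astrocytes. Thinned, these shares were 4.83%, 3.94%, 4.12% and 7.22%, so that the pooled Glu4 share was not above that of astrocytes. In single mice the Glu4 share of Gad2 spanned 6.25% (Day 1 FGF1 2) to 42.1% (Day 1 FGF1 3). It was 9.87% and 8.29% in FGF1 1 and FGF1 45, which held most nuclei. Prkcd was seen in 7.04% of Glu4 nuclei and 8.58% of astrocytes, but in 0.386% of Glu5 and 0.375% of n29. Lhx9, the gene with the largest ratio, was seen in 11.5% of Glu4 nuclei, and 0.617% of Glu5. The intervals cover counting error only.

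The first projection spread the nuclei that became Glu4 over several labels. Before the name Glu4 was set, the nearest label of the first reference atlas was n31.Fam19a2 for 203 nuclei (40.8%), n30.Nr5a1/Nfib for 186 (37.4%) and n29.Nr5a1/Adcyap1 for 77 (15.5%), among 12 labels in all. The confidence ran from 0.127 to 0.747 with a median of 0.412. Nuclei above the stated 0.75 had taken their name from this atlas before a later one was tried, so values below it follow from the order of naming. Across 7215 genes the mean log2(CPM + 1) profile of Glu4 correlated best with the neurons left without a type (Pearson's r = 0.944), then with Glu5 at 0.930 and n29 at 0.925. Microglia (0.928) and oligodendrocytes (0.926) were as near, while astrocytes (0.711), tanycytes (0.692) and endothelial cells (0.506) were below every neuron type. Glu5 and n29, which are numerous, served as comparison types.

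Glu4 nuclei were not alike in all mice. Foxp2, a forkhead regulator, was at 2140 CPM in FGF1 2 and 1190 CPM in vehicle 1 on Day 1, and between 360 and 932 CPM in the other 7 mice. The same pair of mice had the lowest Kcnip4, at 9590 and 9530 CPM against 12200 to 26400 CPM elsewhere, and both had Nox4 at 0 CPM where the others had 108 to 195 CPM. FGF1 2 and vehicle 1 share 1 batch number in the deposited annotation and had 16 and 10 Glu4 nuclei, with 1 UMI worth up to 22.5 CPM. Within single mice Nox4 also differed with Foxp2. In FGF1 1 the 45 nuclei with 2 or more Foxp2 UMIs had Nox4 at 33.2 CPM and the 69 without a Foxp2 UMI had it at 186 CPM. In FGF1 45 the values were 59.9 CPM in 49 nuclei and 142 CPM in 96, and in FGF1 37 they were 117 CPM in 39 and 360 CPM in 11. Rorb, a nuclear receptor, ran the other way in these 3 mice, at 359 against 224, 612 against 268 and 849 against 51.4 CPM. So did Slc17a6, at 239 against 128, 146 against 106 and 229 against 103 CPM. Kcnip4 was lower with Foxp2, at 14800 against 22700, 24600 against 26800 and 18200 against 22800 CPM, while Tcf7l2 stayed between 374 and 499 CPM in all 6 sets of nuclei. Some of these values rest on few UMIs. Nuclei of FGF1 37 without Foxp2 held 2 Rorb and 4 Slc17a6 UMIs, and those of FGF1 1 with Foxp2 held 5 Nox4 UMIs. Nuclei with Foxp2 were also deeper, at medians of 2682 against 2358, 2590 against 2219 and 4150 against 3401 UMIs in FGF1 1, 45 and 37. The part of depth in the splits was not tested. These splits were made after the values were seen and were not tested.

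The first comparison asked whether FGF1 mice gave a different share of Glu4 nuclei. On Day 1 Glu4 made up 3.12%, 0.647% and 1.73% of the annotated nuclei of FGF1 mice and 0.820%, 0.0459% and 1.51% of those of vehicle mice. On Day 5 the shares were 2.70% and 3.47% with FGF1 and 0.422% and 3.10% with vehicle. The groups overlapped on both days. The Day 1 means were 1.83 ± 1.24% (SD, n = 3) with FGF1 and 0.791 ± 0.732% (n = 3) with vehicle, a difference of 1.04 percentage points (exact permutation test, two-sided p = 0.30, with 0.10 the smallest the design allows). The Day 5 means were 3.09 ± 0.544% (n = 2) and 1.76 ± 1.89% (n = 2), a difference of 1.33 points (exact permutation test, two-sided p = 0.667, smallest possible 0.333), and it was -0.0105 points without vehicle 28. Within the deposited batches, each of which held 1 FGF1 and 1 vehicle mouse, the FGF1 share was the higher in 4 of 5, the exception being 0.647% against 0.820%.

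**Figure D2:**
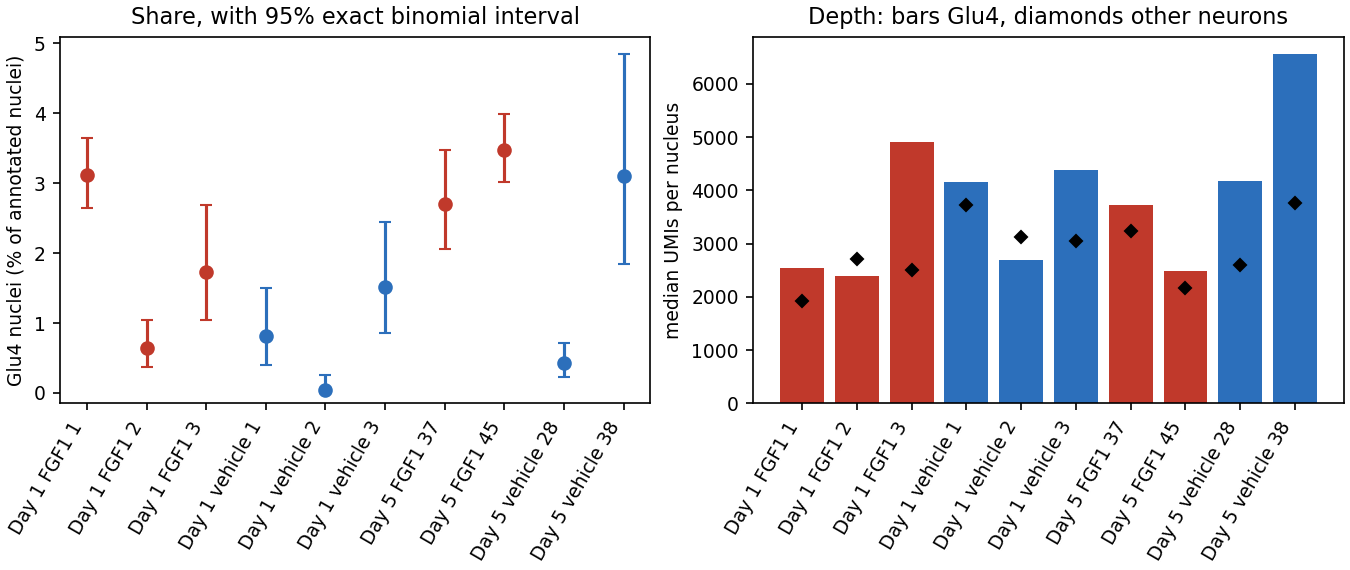
Left, Glu4 nuclei as a percent of annotated nuclei in each of 10 mice with the 95% exact binomial interval (red FGF1, blue vehicle). Right, median UMIs per Glu4 nucleus (bars) and per other neuron nucleus (diamonds). The shares run from 0.0459% to 3.47% and overlap between groups on both days.

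The Day 1 comparison asked what FGF1 changed in Glu4 nuclei after 24 h. No gene passed. Counts were summed over the Glu4 nuclei of each mouse and compared between 3 FGF1 and 2 vehicle mice, and 0 of 1607 genes (0%) had a false discovery rate (FDR) below 0.05 in edgeR's quasi-likelihood test with Benjamini-Hochberg adjustment. The smallest FDR was 0.786, 53 genes (3.3%) had an unadjusted p below 0.05, and DESeq2 called 0. Genes with few Glu4 UMIs were not tested, and the median standard error of a log2 fold change was 0.472. Values far larger than that did not pass either, such as 2.99 for Zmym1 and 3.14 for Nsg1. The 0 calls therefore do not show that changes of this size were absent. With the deposited batch number as a term 1 gene passed, the ubiquitin gene Ubb (log2 fold change 1.98, edgeR quasi-likelihood test, Benjamini-Hochberg FDR 0.0329), at 1670 against 395 CPM (FGF1 1 and vehicle 3) and 405 against 146 CPM (FGF1 2 and vehicle 1) within batches. FGF1 3, whose batch had no other mouse in the fit, was at 345 CPM, and FGF1 1 also stood apart in other neurons, at 1850 CPM against 326 to 518 CPM in the other 4 mice.

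The gene with the smallest Day 1 p was Zmym1, a zinc finger gene. It was at 306, 203 and 236 CPM with FGF1 and at 41.6 and 27.2 CPM with vehicle, a log2 fold change of 2.99 ± 0.60 (SE; edgeR quasi-likelihood test, Benjamini-Hochberg FDR 0.786). Other neurons of the same mice had 405, 152 and 277 CPM against 39.0 and 39.1 CPM, so the groups did not overlap there either. The metallothionein genes Mt1 and Mt2, which bind metals, were at 1080, 563 and 630 against 250 and 231 CPM and at 640, 270 and 404 against 167 and 81.7 CPM, and both have near-identical relatives. Hs3st4, a heparan sulfate sulfotransferase, was at 199, 225 and 345 against 83.3 and 40.8 CPM. Nrxn2, Hint1, Rbm6, Nsg1, A930015D03Rik and Krit1 completed the 10 with positive values, from 1.23 to 3.14 on the log2 scale. The 10 with negative values, from -1.92 to -0.99, began with Pcca, a mitochondrial carboxylase subunit at 173, 158 and 207 against 416 and 422 CPM. None of the 20 passed the test.

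By Day 5 there were 3 genes that passed, all lower with FGF1: Nnat, Rabac1 and Il1rapl2, of 3549 tested (0.0845%). A further check by DESeq2 called 0 of them, with FDR 0.0608, 0.0968 and 0.0856. An unadjusted p below 0.05 was found for 286 genes (8.06%), 131 of them higher and 155 lower. The direction of the calls rests on the filter and the mice: without a filter on low counts 23 of 32 calls were higher with FGF1, and without FGF1 37 it was 8 of 15. All 3 calls rest on 2 mice against 2, and none stood when FGF1 45, the mouse with 193 nuclei, was left out or when batch was a term of the fit. Without FGF1 45 the FGF1 arm has 1 mouse, assumed to vary like the vehicle pair. The log2 fold changes of Nnat, Rabac1 and Il1rapl2 were then -2.09, -2.54 and -1.31, and with batch as a term they were -2.67, -2.38 and -1.51.

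Nnat, neuronatin, an imprinted gene for a small membrane protein of the endoplasmic reticulum, lies at chr2:157560078-157562522 on the plus strand, inside Blcap on the other strand, so reads of the pair cannot be told apart unless strand was used. Its Glu4 level was 69.2 and 34.6 CPM in Day 5 FGF1 mice and 228 and 370 CPM in Day 5 vehicle mice, with no overlap. The log2 fold change was -2.66 ± 0.41 (edgeR quasi-likelihood test, Benjamini-Hochberg FDR 0.00676). On Day 1 it was at 138, 0 and 29.5 CPM with FGF1 and 250 and 109 CPM with vehicle, where the groups overlapped. Glu4 held little of it, 28th of 29 types at 136 ± 123 CPM. Other neurons showed the same order on Day 5, at 109 and 104 CPM with FGF1 and 634 and 301 CPM with vehicle. The difference of the Day 5 FGF1 effect between Glu4 and n29 nuclei was -0.38 ± 0.39 on the log2 scale (edgeR quasi-likelihood test, Benjamini-Hochberg FDR 0.997), and it was -0.97 ± 0.47 against Glu5 (FDR 1). The Nnat call was also lost without vehicle 38.

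Rabac1 (chr7:24969752-24972754, minus strand) encodes a Rab-binding protein of vesicle traffic. It was at 36.6 and 41.9 CPM in Day 5 FGF1 mice and 333 and 153 CPM in vehicle mice, a log2 fold change of -2.42 ± 0.44 (edgeR quasi-likelihood test, Benjamini-Hochberg FDR 0.026). Other neurons had 63.7 and 53.0 against 294 and 99.2 CPM in the same mice. On Day 1 Glu4 nuclei had 319, 67.6 and 59.1 CPM with FGF1 and 104 and 150 CPM with vehicle, which overlapped. The Rabac1 call was also lost without vehicle 28.

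Il1rapl2 (chrX:137570608-138846946, plus strand) encodes a synaptic adhesion protein of the interleukin 1 receptor family. It was at 285 and 228 CPM with FGF1 and 701 and 775 CPM with vehicle on Day 5, a log2 fold change of -1.51 ± 0.28 (edgeR quasi-likelihood test, Benjamini-Hochberg FDR 0.026). In contrast to Nnat and Rabac1, other neurons of these mice were not lower with FGF1, at 591 and 577 against 548 and 522 CPM. The Day 5 effect in Glu4 differed from that in n29 nuclei by -1.50 ± 0.30 (edgeR quasi-likelihood test, Benjamini-Hochberg FDR 0.00329). The difference from Glu5 nuclei, of much the same size at -1.44 ± 0.36, did not pass (FDR 0.703 by the same test). Both fits held 2 FGF1 and 2 vehicle mice. The p-values against n29 treat the spread between mice as nearly known, so that FDR can be too small. On Day 1 it ranged from 207 to 1060 CPM with FGF1, where the mouse with high Foxp2 had the most, and was 541 and 408 CPM with vehicle. The Il1rapl2 call was also lost without vehicle 38.

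**Figure D3:**
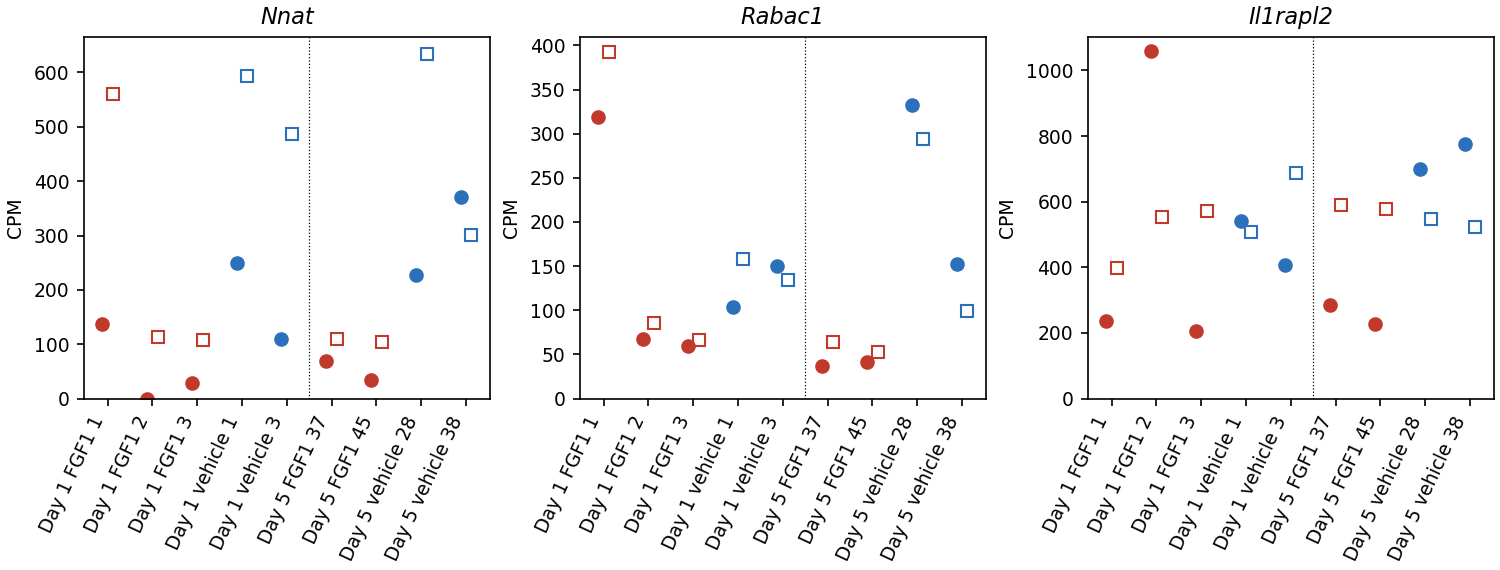
CPM of Nnat, Rabac1 and Il1rapl2 in the summed Glu4 nuclei (filled circles) and in the summed other neurons (open squares) of 9 mice, red FGF1 and blue vehicle, with a dotted line between Day 1 and Day 5. Vehicle mice are above FGF1 mice on Day 5 in Glu4 for all 3 genes, and in other neurons for Nnat and Rabac1 only.

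Depth and GABAergic markers moved with these groups on Day 5. The median Glu4 nucleus held 3720 and 2493 UMIs in FGF1 mice and 4170 and 6553.5 in vehicle mice. With each nucleus thinned to 1000 UMIs 586 genes could be tested and 0 were called. Nnat and Rabac1 were not among the 586, and Il1rapl2 was at -1.42 (edgeR quasi-likelihood test, Benjamini-Hochberg FDR 0.302). The summed Glu4 level of the 3 GABAergic markers, none of which was at 0 in every mouse, was 61.1 to 89.2 CPM with FGF1 and 135 to 175 CPM with vehicle. Sst, a peptide of inhibitory neurons, was at 386 CPM in vehicle 28 and 54.1 to 57.0 CPM in the other 3 mice. The summed 6 astrocyte markers were at 92.8 to 142 CPM with FGF1 and 35.0 and 352 CPM with vehicle, which overlapped. Of the nuclei, 12 of 59 in FGF1 37, 28 of 193 in FGF1 45, 5 of 13 in vehicle 28 and 10 of 18 in vehicle 38 held 3 or more glial or vascular UMIs. Without such nuclei Nnat was at a log2 fold change of -2.03 (edgeR quasi-likelihood test, Benjamini-Hochberg FDR 0.105), while Rabac1 and Il1rapl2 still passed. The part of other cells' RNA in the Day 5 differences was not tested further.

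No gene passed as higher with FGF1 on Day 5, and the 10 with the smallest p are given as values. Wls was at 183 and 169 CPM with FGF1 and 17.5 and 54.1 CPM with vehicle, a log2 fold change of 2.12 ± 0.51 (edgeR quasi-likelihood test, Benjamini-Hochberg FDR 0.243). Chrm2, the M2 muscarinic acetylcholine receptor, was at 199 and 308 against 17.5 and 108 CPM (1.82 ± 0.48, FDR 0.294 by the same test). For both genes the 17.5 CPM of vehicle 28 was the worth of 1 UMI. The A-type potassium channel gene Kcnd3 and its subunit gene Kcnip4 were at 1.78 ± 0.50 and 0.90 ± 0.26 on the log2 scale, with Kcnip4 at 19900 and 26400 against 12200 and 13400 CPM. Osbpl8, Lrrc7, Crim1, Khdrbs3, Msra and Trps1 made up the rest, from 0.87 to 1.66. Beyond the 3 called genes, the lower side held Ptgds, Gm26917, Kcnu1, Gm15155, Gm14009, the netrin receptor gene Unc5d (631 and 435 against 1520 and 910 CPM) and Snrnp40, none of which passed.

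No gene of the thalamic list and none of the 20 leading genes passed the test on either day, and their values are given without a count of signs, since levels in the same mice, 5 of 9 with FGF1, put the leading genes among them. Tcf7l2 was at a log2 fold change of 0.71 ± 0.32 on Day 1 and 0.63 ± 0.30 on Day 5. Ntng1 was at 0.42 on Day 1 and 0.75 ± 0.26 on Day 5. Slc17a6 was at -0.55 and -0.32, Foxp2 at 0.11 and 0.004, and Calb2 at 0.73 and -0.42. FGF1 mice had 16 to 193 Glu4 nuclei each and the vehicle mice 10 to 18, and the part of this difference in the values was not tested.

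**Figure D4:**
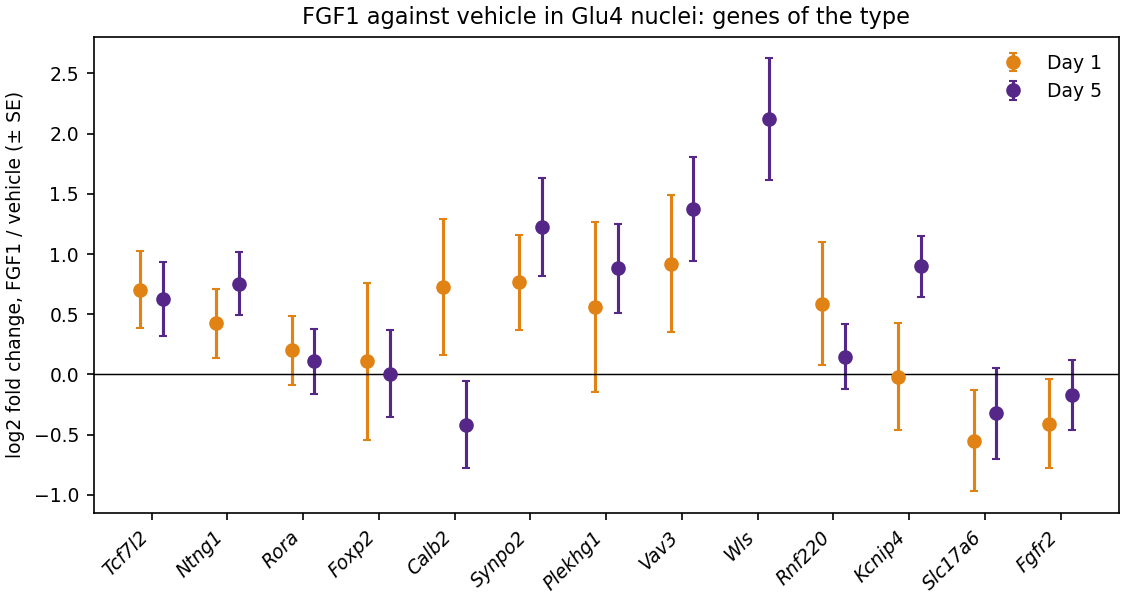
Log2 fold change of FGF1 over vehicle ± SE (edgeR) in Glu4 nuclei on Day 1 (orange, 3 against 2 mice) and Day 5 (purple, 2 against 2 mice) for 13 genes that the text follows. None of the values passed the test. Levels in the same mice put the leading genes among them, so their signs carry no support.

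Other lists gave no call but for the members named above. The 30 ribosomal protein genes tested on Day 1 had 28 positive values (median 0.62), beside 840 of 1607 over all genes (median 0.0193). The 60 tested on Day 5 had 14 (median -0.34), beside 1748 of 3549 (median -0.00738). On Day 1 ribosomal genes took 1.55%, 0.655% and 0.675% of Glu4 UMIs in FGF1 1, 2 and 3, and 0.679% and 0.753% in vehicle 1 and 3. Only FGF1 1 was thus above these vehicle mice, and FGF1 2 and 3 were below them. On Day 5 the values were 0.89% and 0.618% with FGF1 and 0.917% and 0.976% with vehicle. All 4 neuropeptide genes tested on Day 5 were negative (median -1.35), Agrp at 36.6 and 49.1 against 70.1 and 135 CPM among them, a list whose members mark other neuron types. Of the FGF family Fgfr2 was at -0.41 on Day 1 and -0.17 on Day 5. No immediate early gene had enough UMIs to be tested on either day, and the only MAPK feedback gene tested was 1 on Day 5, at 0.38. Of the synaptic adhesion genes, 25 of 36 were positive on Day 5 (median 0.15) and 1, Il1rapl2, was called. The genes that the study names as raised in Agrp neurons, which it chose on these samples, had 7 of 7 positive on Day 1 (median 0.14) and 6 of 7 on Day 5 (median 0.44), none called.

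Taking the days as a term of 1 model, 5 FGF1 against 4 vehicle mice gave 0 calls in 2786 genes (0%) by edgeR and 0 by DESeq2, with 159 genes at an unadjusted p below 0.05 and a smallest Benjamini-Hochberg FDR of 0.822. Here Nnat was at -1.80 ± 0.53 and Tcf7l2 at 0.67, neither past the threshold. The difference of the FGF1 effect between days also gave 0 calls of 2786 (0%) by edgeR and by DESeq2, with 119 genes at an unadjusted p below 0.05. The fall of Nnat, Rabac1 and Il1rapl2 on Day 5 was thus not shown to differ from their Day 1 values. For Rabac1 the difference of effects was -2.99 ± 0.98 (edgeR quasi-likelihood test, Benjamini-Hochberg FDR 0.967).

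Whether Glu4 answered FGF1 otherwise than its neighbours was tested within the same mice. On Day 1 the effect in Glu4 differed from that in Glu5 for 0 of 4150 genes (0%) and from that in n29 for 0 of 7411 (0%), by edgeR and by DESeq2, and the unadjusted p was below 0.05 for 156 and 379 genes. The smallest p against Glu5 was that of Hs3st4, which in Glu5 was at 256, 229 and 179 CPM with FGF1 and 274 and 417 CPM with vehicle, a difference of 2.67 on the log2 scale (FDR 0.184).

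On Day 5 a difference was found for 1 of 6835 genes against Glu5 (0.0146%). Against n29 it was found for 8 of 7887 (0.101%, with 0.038% higher and 0.0634% lower in Glu4). These tests were added after the Day 5 values had been seen, and DESeq2 called 0 in both. Each fit held 2 FGF1 and 2 vehicle mice, and the p-values against n29 treat the spread between mice as nearly known. The call against Glu5 was lost without FGF1 37, without FGF1 45 and without vehicle 28. The 8 calls against n29 became 0 without FGF1 45, 3 without vehicle 28, 4 without vehicle 38 and 1 without a filter on low counts. The gene against Glu5 was Chrm2, at 26.6 and 50.7 CPM with FGF1 and 38.6 and 171 CPM with vehicle in Glu5, where the groups overlapped and vehicle 38 alone was high. The difference was 3.40 ± 0.63 (edgeR quasi-likelihood test, Benjamini-Hochberg FDR 0.0236). In Glu4 Chrm2 was at 17.5 CPM in vehicle 28, the worth of 1 UMI there, so that the size of this difference is uncertain. Against n29 the effect was higher in Glu4 for Plekhg1, Vav3 and Tmem163, by 2.06, 2.21 and 3.26 on the log2 scale. Tmem163 had 10 and 90 UMIs in the FGF1 mice and 0 and 2 in the vehicle mice, so that the size of its difference is uncertain. Vav3 was at 297 and 433 against 35.0 and 216 CPM in Glu4 and at 35.5 and 17.1 against 29.0 and 39.7 CPM in n29. The effect was lower in Glu4 for Il1rapl2, Sst, Unc5d, the protocadherin gene Pcdh7 and the neuregulin receptor gene Erbb4. Sst was high in Glu4 in vehicle 28 alone, as given above. In n29 Sst was at 78.2 and 70.0 CPM with FGF1 and 85.8 and 26.4 CPM with vehicle. Unc5d, with its Glu4 values given above, was at 849 and 954 against 880 and 730 CPM in n29, a difference of -1.22. Tmem163, Pcdh7 and Erbb4 lie beyond the 5 genes of smallest p and were named after their values were seen. Of these 8 genes Vav3 is a leading gene of Glu4 and Plekhg1 a member of the thalamic list, with Plekhg1 at 208 and 351 against 158 and 162 CPM in Glu4 on Day 5. In n29 Plekhg1 was at 76.8 and 60.6 against 96.2 and 178 CPM, so its difference of effects came from both types.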

How the data were processed

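Single nuclei of a hypothalamic punch were profiled by droplet 3′ RNA-seq. The authors aligned reads with Cell Ranger 1.2 to GRCm38 with introns counted, kept nuclei by their own limits on detected genes (400 to 4000) and on mitochondrial and ribosomal UMIs (5%), integrated the samples with Seurat and named neurons by projection on published atlases with over 75% confidence. The authors deposited a table of raw counts (UMIs per gene and nucleus) and an annotation of each nucleus with its mouse, batch number, cell type and the confidence of its projected label, a fraction from 0 to 1 that the authors computed. What the batch number stands for is not given in the sources used here, and doublets among the nuclei were not called by the authors or here.

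Counts were summed over the Glu4 nuclei of each mouse with at least 10 of them. CPM are these sums scaled to a total of 1000000. Other neurons are all nuclei annotated as neurons other than Glu4, those without a named type included. Groups were compared in R 4.3.3 with edgeR 4.0.16 (filterByExpr, TMM, robust quasi-likelihood fit, FDR below 0.05 by Benjamini-Hochberg) and, as an alternative, DESeq2 1.42.0. The edgeR fits of FGF1 against vehicle were tested first on simulated counts with the same spread for every gene. DESeq2 and the differences of effects were not. Such counts are simpler than real ones, so the simulation lends the calls no support. The standard error is the log2 fold change over the root of F. Shares of nuclei were compared by an exact permutation test over mice (scipy 1.17.1). Named genes were the 10 of each direction with the largest called change or, failing calls, the smallest p, the 5 of smallest p for differences of effects, the 20 with the largest ratio to other neurons among genes of at least 50 CPM, the 10 of highest mean CPM, and list members that a sentence needed. Some genes that the rule names are not reported here. The type, its members and all lists were chosen with earlier results of these data known. Alternatives were other normalization, filters, other least numbers of nuclei a mouse, thinning, batch and replicate blocks and leaving out each mouse. Coordinates come from the GENCODE vM21 annotation of GRCm38. Whole-cell libraries of the series were not used here.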

Additional observations from a re-analysis of the deposited data

How the results depend on the processing

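The Day 1 count of 0 called genes became 2 without a filter on low counts, 1 with batch as a term, and ran from 0 to 1 when each mouse was left out (1 without vehicle 1). The Day 5 count of 3 became 0 with DESeq2, with nuclei thinned to 1000 UMIs (where Nnat and Rabac1 had too few counts to be tested), with a contrast from the fit of all 4 groups and with batch as a term. It became 32 without a filter (23 higher with FGF1) and 7 without nuclei with 3 or more glial or vascular UMIs (2 higher). Leaving out each mouse gave 0 (without FGF1 45) to 26 (without vehicle 38), with 15 without FGF1 37 and 12 without vehicle 28. Of these 26, 15 and 12 calls, 11, 8 and 3 were higher with FGF1. These fits set 2 mice against 1, the lone mouse assumed to vary like the pair, and of the 3 genes 3 were kept without FGF1 37, 2 without vehicle 28 and 1 without vehicle 38. Over these alternatives the log2 fold change ran from -3.02 to -2.03 for Nnat, from -2.90 to -1.83 for Rabac1 and from -1.68 to -1.17 for Il1rapl2, and the call stood in 7 of 13, 8 of 13 and 7 of 14. Among these alternatives, the limits of 5 nuclei a mouse and of 5% mitochondrial or ribosomal UMIs removed nothing on Day 5. The calls kept under them repeat the main fit. For both days together the count of 0 was 5 without a filter and 0 to 1 with each mouse left out (1 without Day 1 FGF1 1 and 1 without Day 1 vehicle 1). The count for the difference between days was 1 without a filter.

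The Day 1 count of 0 against Glu5 was 1 with a filter of at least 10 counts and 0 to 8 with each mouse left out (1 without vehicle 1, 8 without vehicle 3), and against n29 it was 0 to 11 (11 without FGF1 2). The Day 5 count of 1 against Glu5 was 0 with DESeq2 and 0 to 14 with each mouse left out (14 without vehicle 38, 0 without each of the other 3). The Day 5 count of 8 against n29 was 0 with DESeq2, 1 without a filter and 0 to 9 with each mouse left out (0 without FGF1 45, 3 without vehicle 28, 4 without vehicle 38). The effect for Cemip against Glu5 on Day 5 turned from -3.40 to 0.65 without vehicle 28, and was -4.065 without vehicle 38. The cause of these changes was not tested. The difference in the Day 1 share ran from 0.399 to 1.63 percentage points and that of Day 5 from -0.0105 (without vehicle 28) to 2.67.

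The replicate block on Day 1, with the replicate numbers that the labels repeat across groups, gave 0 called genes, as without it. Same-numbered mice correlated at -0.0574 and 0.0631 in their deviations from the group means, over 2 pairs, too few to decide whether the numbers pair the mice, and with 2 vehicle mice their deviations mirror each other. Mice of 1 batch correlated at 0.0124 to 0.0974. On Day 5 no replicate number is shared. Leaving out nuclei with glial or vascular UMIs at 10 nuclei a mouse left too few mice and was not run, and 5 nuclei a mouse were used, a setting chosen after seeing the data, as were the Day 5 comparisons with Glu5 and n29. With 10 to 18 Glu4 nuclei in each vehicle mouse used, low genes could not be tested.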
